A study of Mus musculus with 16 samples.

Results

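The genes described here are 10 transcripts of tendon and cartilage, Scx, Mkx, Tnmd, Fmod, Kera, Chad, Comp, Thbs4, Cilp and Cilp2, measured by RNA-seq in mouse skeletal muscle. They were taken by gene symbol from a table of 55487 genes, and each symbol matched 1 gene. All 10 were among the 17490 genes that passed a filter on low counts and were tested. The study compared wild-type (WT) mice with mice labelled CHCHD4 Tg (Tg), with or without treadmill training, to see the molecular changes that accompany CHCHD4 and training. Levels of single libraries are given in the order of replicates 1 to 4. The 4 groups were WT untrained, WT trained, Tg untrained and Tg trained, with 4 libraries in each. CHCHD4 is an import and oxidation factor of the mitochondrial intermembrane space. The muscle, the mouse strain, the age of the animals, the promoter of the transgene and the length of training are not given in the sources used here. The labels do not tie each library to an animal of its own. A p-value here therefore sets a group difference only against the spread between libraries within groups, estimated over the 4 groups together. That spread may be technical.

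Tendon is made by tenocytes, fibroblast-like cells that lay down parallel bundles of type I collagen and join muscle to bone. Scleraxis, the product of Scx, and Mohawk, the product of Mkx, are transcription factors that drive the tenocyte programme, and Tnmd is a membrane protein gene that depends on Scx and marks mature tenocytes. Fmod, Kera and Chad encode leucine-rich repeat proteins that bind collagen, Comp and Thbs4 encode thrombospondins that bridge collagen fibrils and cells, and Cilp and Cilp2 encode cartilage intermediate layer proteins, which are also made in tendon and other dense connective tissue. A piece of skeletal muscle holds some of this tissue at the myotendinous junction and in the fascia. In bulk RNA, fewer cells of a type and less RNA per cell cannot be told apart.

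Of the 10 genes, 7 had an entry in the RefSeq promoter table for GRCm38.p6. Those of Fmod, Chad, Thbs4 and Cilp are shown because their windows held no annotated exon bases. The windows of Kera, Tnmd and Cilp2 held some, so their sequences are not shown, although their motifs were counted. Fmod, Chad and Thbs4 varied together across libraries, and Cilp followed them least closely after Scx. Each is the 250 bases before the RefSeq start, 5′ to 3′ on the strand of the gene, with the motif CANNTG in capitals, the E-box form that basic helix-loop-helix factors such as scleraxis bind. The windows lie at chr1:134037004-134037253 (plus strand) for Fmod, chr11:94564797-94565046 (plus strand) for Chad, chr13:92794819-92795068 (minus strand) for Thbs4 and chr9:65264930-65265179 (plus strand) for Cilp.
Fmod: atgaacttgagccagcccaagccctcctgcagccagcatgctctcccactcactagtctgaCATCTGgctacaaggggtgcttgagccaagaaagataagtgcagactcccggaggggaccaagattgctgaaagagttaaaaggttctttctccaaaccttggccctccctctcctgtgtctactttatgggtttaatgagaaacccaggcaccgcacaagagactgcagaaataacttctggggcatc
Chad: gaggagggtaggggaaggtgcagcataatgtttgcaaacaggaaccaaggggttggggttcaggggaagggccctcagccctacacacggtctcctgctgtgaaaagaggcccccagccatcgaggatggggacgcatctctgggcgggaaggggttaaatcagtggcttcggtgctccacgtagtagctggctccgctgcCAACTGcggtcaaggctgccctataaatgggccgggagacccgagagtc
Thbs4: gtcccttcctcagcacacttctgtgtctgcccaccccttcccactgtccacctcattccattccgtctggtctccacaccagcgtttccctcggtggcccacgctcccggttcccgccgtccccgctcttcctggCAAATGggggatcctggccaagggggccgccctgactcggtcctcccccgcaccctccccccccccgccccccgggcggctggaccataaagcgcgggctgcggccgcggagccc
Cilp: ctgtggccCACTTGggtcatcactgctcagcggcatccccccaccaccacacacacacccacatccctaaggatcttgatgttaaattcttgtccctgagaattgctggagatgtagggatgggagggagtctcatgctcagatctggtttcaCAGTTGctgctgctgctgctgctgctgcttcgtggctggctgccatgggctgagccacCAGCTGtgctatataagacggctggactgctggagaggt

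The motif reads the same on both strands as a pattern. It occurred 1 time in the windows of Fmod, Chad, Thbs4 and Cilp2, 3 times in that of Cilp and 0 times in those of Kera and Tnmd. Of 32851 promoter windows of this length, 66.2% held it at least 1 time and 12.2% held it at least 3 times. The form CAGCTG, which is also a CANNTG match, was present only in the Cilp window among the 7, and in 13% of all windows. These matches describe letters, not binding.

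Library totals ranged from 40888325 to 61703724 counts, and levels are given as CPM, counts scaled to library size with TMM factors of 0.924 to 1.285. Chchd4 separated the genotypes, with 6.88 to 8.98 CPM in WT and 18.1 to 22.2 CPM in Tg libraries. A log2 fold change (log2FC) with its standard error (SE) and p came from edgeR's quasi-likelihood test with Benjamini-Hochberg adjustment over the 17490 genes, and a gene was called at an adjusted p under 0.05. WT untrained replicate 2 stood apart from the rest: it had the highest TMM factor and was the lowest library for 20% and the highest for 19.6% of tested genes. Results of Scx that rest on it are given with and without it. Without it, edgeR called 93 of the 17490 tested genes for training in Tg, against 0 with all libraries. For training averaged over the genotypes it called 218, against 80.

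The genes differed in level. Per kilobase of merged exon, Thbs4 had the highest mean over the 16 libraries (14.97 CPM per kb), followed by Fmod (12.8) and Cilp (4.70). Tnmd (2.12), Chad (1.77), Comp (1.52), Kera (1.25) and Scx (1.18) formed a middle range, and Cilp2 (0.798) and Mkx (0.160) were lowest. Against all tested genes, the mean CPM of Thbs4 stood at the 92.8th percentile and that of Mkx at the 23.7th. Mkx was counted with only 5 to 74 expected counts per library.

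Several defining genes of hyaline cartilage were scarce in the same libraries. Col2a1, the main cartilage collagen, had group means of 0.0975 to 0.390 CPM, and Acan, the large cartilage proteoglycan, 0.236 to 0.539 CPM. Means of Hapln1, which encodes the link protein of cartilage, were 0.0253 to 0.0966 CPM and those of Cnmd 0.0196 to 0.0756 CPM. Matn1 and Snorc had 0 counts in all 16 libraries. Other genes of the cartilage list were higher, with means over all libraries of 4.85 CPM for Prg4, 4.50 for Col11a2, 4.35 for Col11a1, 1.40 for Col9a1 and 0.853 for Sox9.

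The 10 genes were lower on average in trained than in untrained muscle of both genotypes, and none passed the test in any contrast. The spread among libraries of 1 group was wide, most of all in WT trained muscle, where 2 of the 4 libraries held very little of most of these transcripts and 1 lay close to the untrained libraries.

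**Figure D1:**
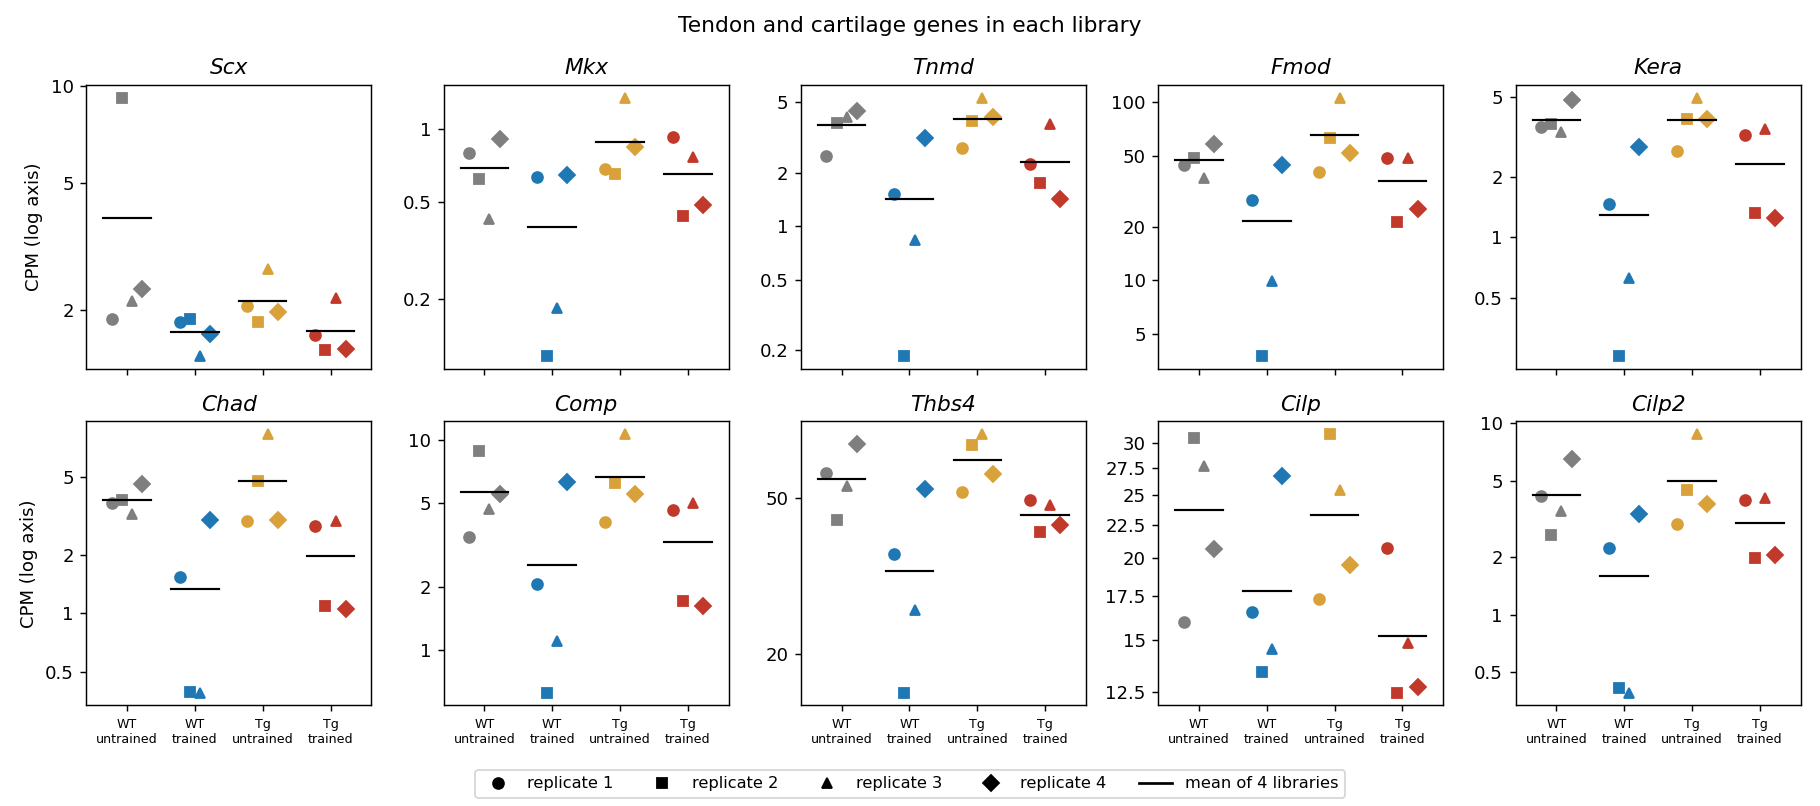
Level of each gene in CPM (vertical log axis, a range of its own for each gene) in every library of the 4 groups; marker shape gives the replicate number and the bar is the mean of 4 libraries. WT trained replicates 2 and 3 lie lowest for most genes, as for Tnmd at 0.185 and 0.838 CPM, while WT trained replicate 4 lies near the untrained libraries at 3.16 CPM.

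Among the regulators, Scx (ENSMUSG00000034161.8, GRCm38 chromosome 15, 76457452 to 76459458, plus strand) measured 1.88, 9.17, 2.15 and 2.34 CPM in untrained WT libraries against 1.84, 1.88, 1.44 and 1.69 in trained WT, and 2.07, 1.84, 2.69 and 1.98 in untrained Tg against 1.67, 1.51, 2.18 and 1.51 in trained Tg libraries. A single library, WT untrained replicate 2, was far above the other 15, which lay between 1.44 and 2.69 CPM. The WT groups did not overlap, but only just: the lowest untrained library had 1.878 CPM and the highest trained one 1.876. The log2FC for training in WT was -1.19 (SE 0.40, adjusted p = 0.381) with that library and -0.31 without it, and for Tg against WT untrained muscle it was -0.87 (SE 0.39, adjusted p = 0.289) with it and 0.02 without it. Scx lies inside Bop1, a ribosome biogenesis gene on the opposite strand, with 0 exon bases shared. The sources used here do not state whether reads were assigned by strand, so reads of the 2 genes may not be separable where intron sequence was read. Bop1 was also highest in WT untrained replicate 2, at 18.5 CPM against 9.07 to 11.4 CPM in the others, and its part in the Scx value was not tested.

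Mkx (ENSMUSG00000061013.6) measured 0.799, 0.622, 0.424 and 0.906 CPM in untrained WT libraries against 0.632, 0.116, 0.183 and 0.645 in trained WT, and 0.682, 0.655, 1.34 and 0.841 in untrained Tg against 0.923, 0.439, 0.767 and 0.485 in trained Tg libraries. WT trained replicates 2 and 3 were the lowest of the 16 and the other 2 WT trained libraries sat inside the untrained range. The log2FC for training was -0.76 (SE 0.43) in WT and -0.45 (SE 0.40) in Tg, with adjusted p of 0.602 and 0.729 in edgeR's quasi-likelihood test. Its 201 exon bases shared with an unnamed transcript model on the same strand add to the uncertainty of these low counts.

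Tnmd (ENSMUSG00000031250.8, chromosome X, 133850980 to 133865577, plus strand) measured 2.48, 3.80, 4.15 and 4.49 CPM in untrained WT libraries against 1.53, 0.185, 0.838 and 3.16 in trained WT, and 2.77, 3.93, 5.30 and 4.13 in untrained Tg against 2.23, 1.75, 3.78 and 1.42 in trained Tg libraries. It spanned a 28.6-fold range over the 16 libraries, the widest of the 10 genes. Trained and untrained libraries overlapped in both genotypes, through WT trained replicate 4 and Tg trained replicate 3. The log2FC for training was -1.36 (SE 0.48, adjusted p = 0.412) in WT and -0.82 (SE 0.46, adjusted p = 0.542) in Tg.

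The leucine-rich repeat genes were high and low in the same libraries. Fmod, or fibromodulin, which steers collagen fibril assembly (ENSMUSG00000041559.7, chromosome 1, 134037254 to 134048277, plus strand), measured 44.1, 48.5, 37.5 and 58.4 CPM in untrained WT libraries against 28.1, 3.75, 9.87 and 44.3 in trained WT, and 40.3, 63.2, 105.6 and 52.0 in untrained Tg against 48.8, 21.2, 48.3 and 25.1 in trained Tg libraries. Within WT trained muscle alone Fmod differed 11.8-fold between the highest and the lowest library. Its log2FC for training was -1.12 (SE 0.52, adjusted p = 0.519) in WT and -0.87 (SE 0.51, adjusted p = 0.568) in Tg.

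Kera, or keratocan, best known from the cornea and also made in tendon (ENSMUSG00000019932.8, chromosome 10, 97606879 to 97613692, plus strand), measured 3.58, 3.66, 3.37 and 4.85 CPM in untrained WT libraries against 1.47, 0.255, 0.629 and 2.83 in trained WT, and 2.69, 3.91, 4.98 and 3.91 in untrained Tg against 3.26, 1.32, 3.48 and 1.24 in trained Tg libraries. All 4 WT trained libraries lay below all 4 WT untrained ones, which was the case for Scx, Kera and Chad; of all tested genes 2.03% had WT groups apart in this direction. In Tg the groups overlapped, with trained replicates 1 and 3 within the untrained range and replicates 2 and 4 below it. Kera had the lowest p of the 10 for training in WT (log2FC -1.55, SE 0.48, adjusted p = 0.342), and in Tg its log2FC was -0.74 (SE 0.45, adjusted p = 0.581).

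Chad, or chondroadherin, a cell-binding protein of cartilage and tendon (ENSMUSG00000039084.8, chromosome 11, 94565047 to 94569127, plus strand, overlapping Acsf2 on the opposite strand with 0 exon bases shared), measured 3.66, 3.79, 3.23 and 4.61 CPM in untrained WT libraries against 1.54, 0.394, 0.393 and 3.02 in trained WT, and 2.97, 4.75, 8.26 and 3.00 in untrained Tg against 2.79, 1.09, 2.97 and 1.05 in trained Tg libraries. The WT groups did not overlap. In Tg the highest trained library barely exceeded the lowest untrained one. Its log2FC for training was -1.48 (SE 0.53, adjusted p = 0.412) in WT and -1.27 (SE 0.50, adjusted p = 0.368) in Tg, the largest difference of the 10 in Tg.

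Of the thrombospondins, Comp, or cartilage oligomeric matrix protein, which is abundant in load-bearing tendon (ENSMUSG00000031849.9, chromosome 8, 70373558 to 70382066, plus strand), measured 3.44, 8.83, 4.67 and 5.54 CPM in untrained WT libraries against 2.06, 0.625, 1.10 and 6.33 in trained WT, and 4.07, 6.25, 10.6 and 5.52 in untrained Tg against 4.66, 1.70, 5.02 and 1.61 in trained Tg libraries. WT trained replicate 4 was above 3 of the 4 WT untrained libraries, so that Comp had the highest coefficient of variation (SD over mean) of the 10 in that group, 103%. Its log2FC for training was -1.14 (SE 0.56, adjusted p = 0.539) in WT and -1.04 (SE 0.54, adjusted p = 0.505) in Tg.

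Thbs4, which is needed for the attachment of muscle to tendon (ENSMUSG00000021702.7, chromosome 13, 92751590 to 92794818, minus strand), measured 58.2, 44.1, 53.6 and 68.9 CPM in untrained WT libraries against 36.0, 15.9, 26.0 and 52.8 in trained WT, and 51.8, 68.5, 72.9 and 57.6 in untrained Tg against 49.5, 40.93, 48.1 and 42.7 in trained Tg libraries. In Tg all 4 trained libraries lay below all 4 untrained ones. It was the only gene of the 10 with that separation in Tg, which 4.53% of tested genes showed in this direction. Its log2FC for training was -0.78 (SE 0.25, adjusted p = 0.373) in WT and -0.47 (SE 0.25, adjusted p = 0.512) in Tg, with smaller errors than those of Fmod or Comp.

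Cilp (ENSMUSG00000042254.14, chromosome 9, 65265180 to 65280605, plus strand) measured 16.002, 30.45, 27.6 and 20.6 CPM in untrained WT libraries against 16.6, 13.4, 14.5 and 26.7 in trained WT, and 17.4, 30.9, 25.4 and 19.5 in untrained Tg against 20.7, 12.5, 14.9 and 12.7 in trained Tg libraries. It varied least of the 10, 2.47-fold over all libraries, and its lowest library was Tg trained replicate 2 and not a WT trained one. Cilp was the only gene of the 10 with a larger training difference in Tg (log2FC -0.62, SE 0.25, adjusted p = 0.376) than in WT (-0.41, SE 0.25, adjusted p = 0.62). The difference between the 2 responses, Tg minus WT, was -0.21 (95% interval -0.95 to 0.53).

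Cilp2 (ENSMUSG00000044006.8, chromosome 8, 69880369 to 69887687, minus strand) measured 4.18, 2.60, 3.47 and 6.51 CPM in untrained WT libraries against 2.21, 0.417, 0.393 and 3.35 in trained WT, and 2.97, 4.46, 8.72 and 3.79 in untrained Tg against 3.97, 1.96, 4.05 and 2.06 in trained Tg libraries. Unlike its paralogue Cilp, it was lowest in WT trained replicates 2 and 3. The log2FC for training was -1.35 (SE 0.53, adjusted p = 0.449) in WT and -0.73 (SE 0.50, adjusted p = 0.64) in Tg.

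Read over the libraries, the extremes coincided. WT trained replicate 2 was the lowest of the 16 libraries for 6 of the 10 genes (Mkx, Tnmd, Fmod, Kera, Comp and Thbs4) and WT trained replicate 3 for 3 (Scx, Chad and Cilp2), where 6.61% and 6.95% of all tested genes had their lowest value. Tg untrained replicate 3 was highest for 8 genes, all but Scx and Cilp, against 8.82% of tested genes. In WT trained muscle 7 of the 10 genes had a coefficient of variation above 70%, as had 1.86% of tested genes. The median coefficient of variation of the 10 was 86.8% there against 12.05% over all tested genes, and in the other groups it was 25.7% (WT untrained), 31.3% (Tg untrained) and 39.8% (Tg trained) against 15.2%, 11.6% and 9.51%.

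Group means of 8 of the 10 genes, all but Scx and Cilp, decreased in the order Tg untrained, WT untrained, Tg trained, WT trained, an order that 4.13% of tested genes had. Without Tg untrained replicate 3, the fitted difference of Tg from WT untrained muscle was negative for 7 of the 10 genes. Neighbours in that order overlapped in mean ± SD for all 8 except Chad, which had 3.82 ± 0.578 CPM in WT untrained and 1.97 ± 1.05 CPM in Tg trained libraries (SD, n = 4). Fmod had means of 65.3 ± 28.5, 47.1 ± 8.77, 35.9 ± 14.8 and 21.5 ± 18.4 CPM in those groups (SD, n = 4), and Thbs4 62.7 ± 9.69, 56.2 ± 10.3, 45.3 ± 4.14 and 32.7 ± 15.7. Kera was nearly level in the untrained groups, at 3.87 ± 0.935 CPM in Tg and 3.87 ± 0.670 CPM in WT, and had 2.33 ± 1.21 in Tg trained and 1.296 ± 1.14 in WT trained muscle.

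Between trained and untrained WT muscle, 0 of the 10 genes were called, where 0.143% of all tested genes were, and 0 were called with DESeq2 or limma-voom. Of the 17490 tested genes DESeq2 called 68 and limma-voom 19. All 10 had a negative log2FC, as had 48.7% of tested genes, and 7 had an unadjusted p under 0.05 with a lower level (4.79% of tested genes). Without WT untrained replicate 2 that count was 5. The median log2FC of the 10 was -1.16, against 0.0054 over all tested genes. Left-out libraries moved it: it was -1.86 without WT trained replicate 4, the library with untrained-like levels, and -0.911 without replicate 2. WT trained replicate 4 also had 35.6 CPM of Alb, a liver gene, against 0.0744 to 0.236 CPM in the other WT trained libraries. When WT trained replicates 2 and 3 were left out together, a choice made after their values were seen, all 10 log2FC stayed negative, their median was -0.514 and 1 gene had an unadjusted p under 0.05.

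In Tg muscle, 0 of the 10 genes were called for training by edgeR with all 16 libraries, where 0% of tested genes were. Here too 10 of 10 had a negative log2FC (49.4% of tested genes), with a median of -0.74, and 2 had an unadjusted p under 0.05, Chad and Cilp (6.81% of tested genes, lower). That count was 8 with only the 8 Tg libraries in edgeR (lowest adjusted p = 0.0635), 5 with limma-voom and 0 without Tg untrained replicate 3. In both genotypes at once 10 of 10 were negative, as were 28.2% of tested genes. DESeq2 and limma-voom called 0 of the 10 in Tg, between the genotypes and for the difference of responses as well. Of the 17490 tested genes DESeq2 called 132 in Tg, 442 and 55 between genotypes without and with training, and 37 for the difference. For limma-voom these counts were 0, 106, 2 and 9. With only the 8 Tg libraries edgeR called 146 of 16832 tested genes for training and none of the 10. The lower trained libraries in Tg were replicates 2 and 4, in which each of the 10 genes was below all 4 Tg untrained libraries (13.8% of tested genes were), while replicates 1 and 3 lay within the untrained range for Mkx, Fmod, Kera, Comp and Cilp2.

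Averaged over the genotypes, training had a median log2FC of -1.02 over the 10 genes, all negative (49.5% of tested genes), and 9 had an unadjusted p under 0.05 (7.76% of tested genes, lower). None was called, where 0.457% of tested genes were. The lowest adjusted p values were those of Chad (log2FC -1.38, SE 0.36, adjusted p = 0.107), Thbs4 (-0.62, SE 0.18, adjusted p = 0.126), Kera (-1.15, SE 0.33, adjusted p = 0.132) and Tnmd (-1.09, SE 0.33, adjusted p = 0.151). Mkx had the highest, with a log2FC of -0.60 (SE 0.29, adjusted p = 0.367). The log2FC of Scx was -0.75, and -0.32 without WT untrained replicate 2. DESeq2 called 1 of the 10, Thbs4 (adjusted p = 0.0328), and 366 of the 17490 tested genes. With limma-voom 0 of the 10 and 58 of the 17490 were called. Without WT trained replicate 4 edgeR called 6 of the 10: Thbs4 (adjusted p = 0.0151), Chad (0.019), Kera (0.0209), Tnmd (0.0228), Comp (0.0258) and Cilp (0.049). In that run 389 of the 17490 tested genes were called, against 80 with all libraries.

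**Figure D2:**
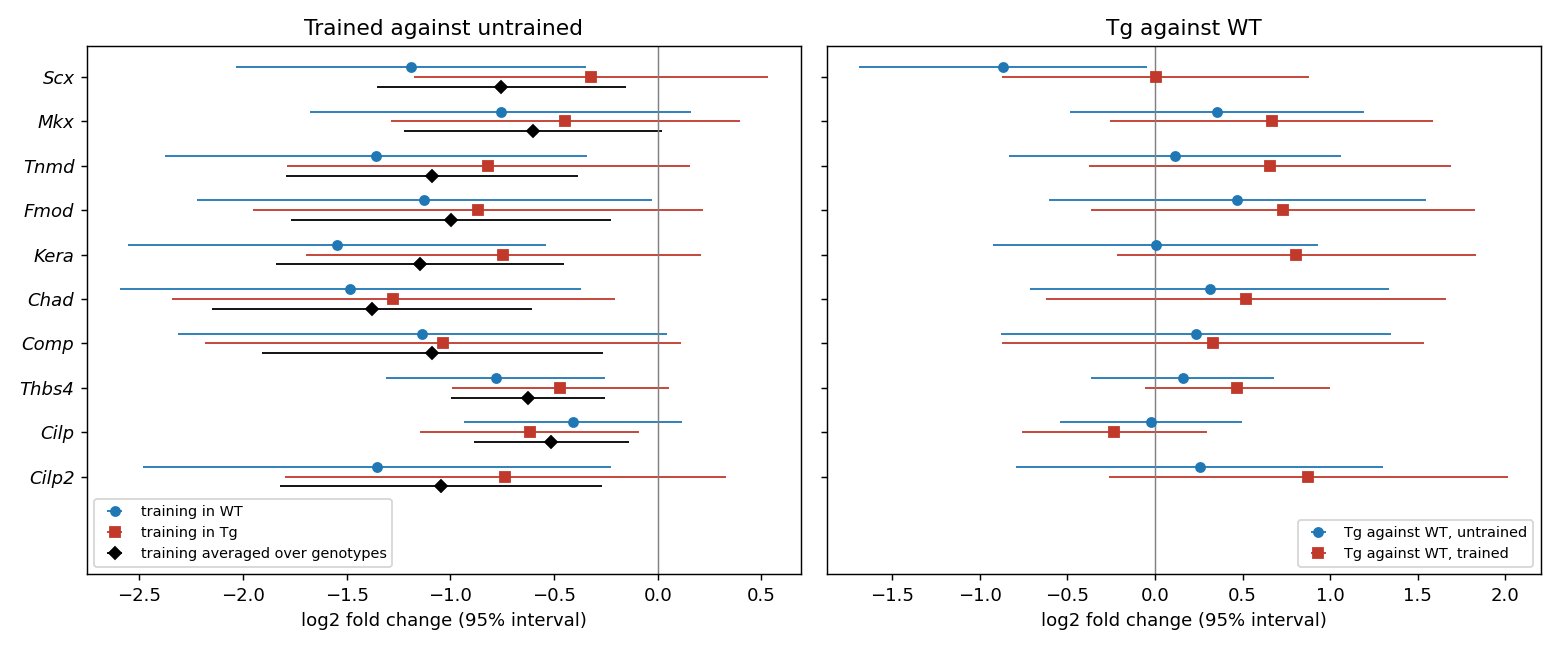
Log2 fold change of each gene with its 95% interval from edgeR (horizontal axis), for training in WT, in Tg and averaged (left) and for Tg against WT without and with training (right). All training estimates lie below 0, from -1.55 for Kera in WT to -0.32 for Scx in Tg, and all intervals between genotypes but that of Scx without training span 0.

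The median log2FC between genotypes lay closer to 0 than those for training. Between Tg and WT untrained muscle, 0 of the 10 genes were called (0.743% of tested genes were), 8 had a positive log2FC (50.8% of tested genes), and the median was 0.20. Without Tg untrained replicate 3 the median was -0.078 and 7 of the 10 were negative. Only Scx had an unadjusted p under 0.05 (7.98% of tested genes, lower), and that rested on WT untrained replicate 2. Kera was level, with a log2FC of 0.0032 (95% interval -0.93 to 0.93), and Fmod was the highest at 0.47 (95% interval -0.61 to 1.55). With intervals this wide, equal levels were not shown.

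Between Tg and WT trained muscle, 0 were called (0.0114% of tested genes were) and 0 had an unadjusted p under 0.05 (7.98% of tested genes did, in either direction), in edgeR. Of the 10, 9 had a positive log2FC (49.1% of tested genes), with a median of 0.59. The largest were Cilp2 at 0.88 (SE 0.54, adjusted p = 0.751) and Kera at 0.81 (SE 0.48, adjusted p = 0.743), and Cilp alone was negative at -0.23 (SE 0.25, adjusted p = 0.90). Without WT trained replicates 2 and 3 the median was -0.020. The training responses themselves, compared as Tg minus WT, differed by a median of 0.31, with 0 of 10 called (0.0515% of tested genes were) and 0 with an unadjusted p under 0.05 (6.03% in either direction), in edgeR. Of the 10, 9 were positive, as were 48.5% of tested genes. Without WT trained replicate 2 the median was 0.045 and 4 of the 10 were negative, and without replicates 2 and 3 it was -0.244 and 8 were negative. The largest was that of Scx (0.87, SE 0.57, adjusted p = 0.879), which was -0.013 without WT untrained replicate 2. The contrasts share libraries, and a sign that recurs in several of them is not repeated evidence.

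The 10 genes were then compared with one another across the 16 libraries, on the log2 CPM scale with 0.5 counts added. Leaving out Scx and Cilp, all 28 pairs of the other 8 had Pearson's r between 0.843 and 0.974, and between 0.759 and 0.973 after the mean of each group was removed. Fmod and Kera were the closest pair (r = 0.974 and Spearman's rho = 0.929, with permutation p of 1e-05 and 1e-05, the smallest that 100000 permutations can give, and 2e-05 and 7e-05 after adjustment over 45 pairs; r = 0.973 with group means removed). The permutations shuffled the 16 libraries across groups, so differences between groups enter these p values. Without the 2 libraries farthest from the median of Fmod, r between Fmod and Kera was 0.905. Over the 28 pairs the lowest r without the 2 farthest libraries was 0.488. The genes came from the same libraries and were chosen with these data known, so the likeness describes the list and supports nothing further.

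Scx and Cilp followed the others less closely. Pearson's r was 0.157 to 0.529 for the 9 pairs with Scx and Spearman's rho 0.415 to 0.75. It was 0.437 to 0.797 for the 8 other pairs with Cilp. In Cilp the libraries with high levels were WT untrained 2 and 3, Tg untrained 2 and 3 and WT trained 4, while WT untrained 1 lay within the trained range.

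**Figure D3:**
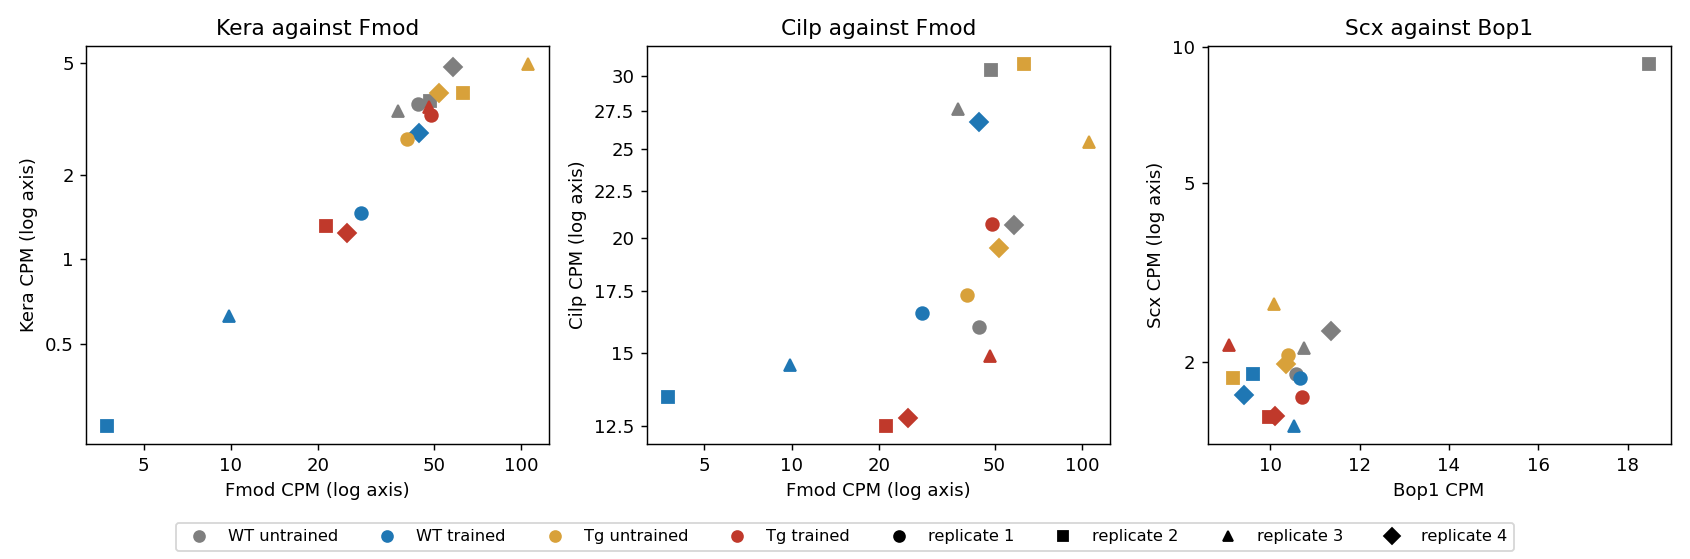
CPM of Kera against Fmod and of Cilp against Fmod (log axes), and of Scx (log axis) against Bop1, 1 point per library, coloured by group with the marker shape giving the replicate. Kera and Fmod form a line from WT trained replicate 2 (0.255 and 3.75 CPM) upward, Cilp is more scattered, and WT untrained replicate 2 stands alone for Scx at 9.17 CPM with Bop1 at 18.5 CPM.

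Outside the 10, the genes with a mean of at least 1 CPM whose log2 CPM followed the mean of the 10 standardised profiles most closely over 16 libraries were Cpxm2 (r = 0.965), Prelp (0.965), Fbln1 (0.960), Angptl7 (0.948), Ust (0.943), Abi3bp (0.940), Serpinf1 (0.939) and Pam (0.937). Prelp is a leucine-rich repeat proteoglycan, Fbln1 an extracellular matrix glycoprotein and Serpinf1 a secreted serpin. None of the 8 was called for training. Their log2FC averaged over the genotypes ranged from -1.16 for Angptl7 (adjusted p = 0.216) to -0.19 for Pam (adjusted p = 0.331), and the lowest adjusted p was that of Serpinf1 (-0.64, adjusted p = 0.0888). Among reference genes, given as a description without a test, the same profile had r = 0.833 with Col2a1, 0.452 with Acan, -0.263 with Sox9, 0.717 with Pdgfra, a marker of fibro-adipogenic progenitors, 0.469 with Adipoq, 0.262 with Myh7 and -0.626 with Acta1, the skeletal actin of the fibres themselves.

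**Figure D4:**
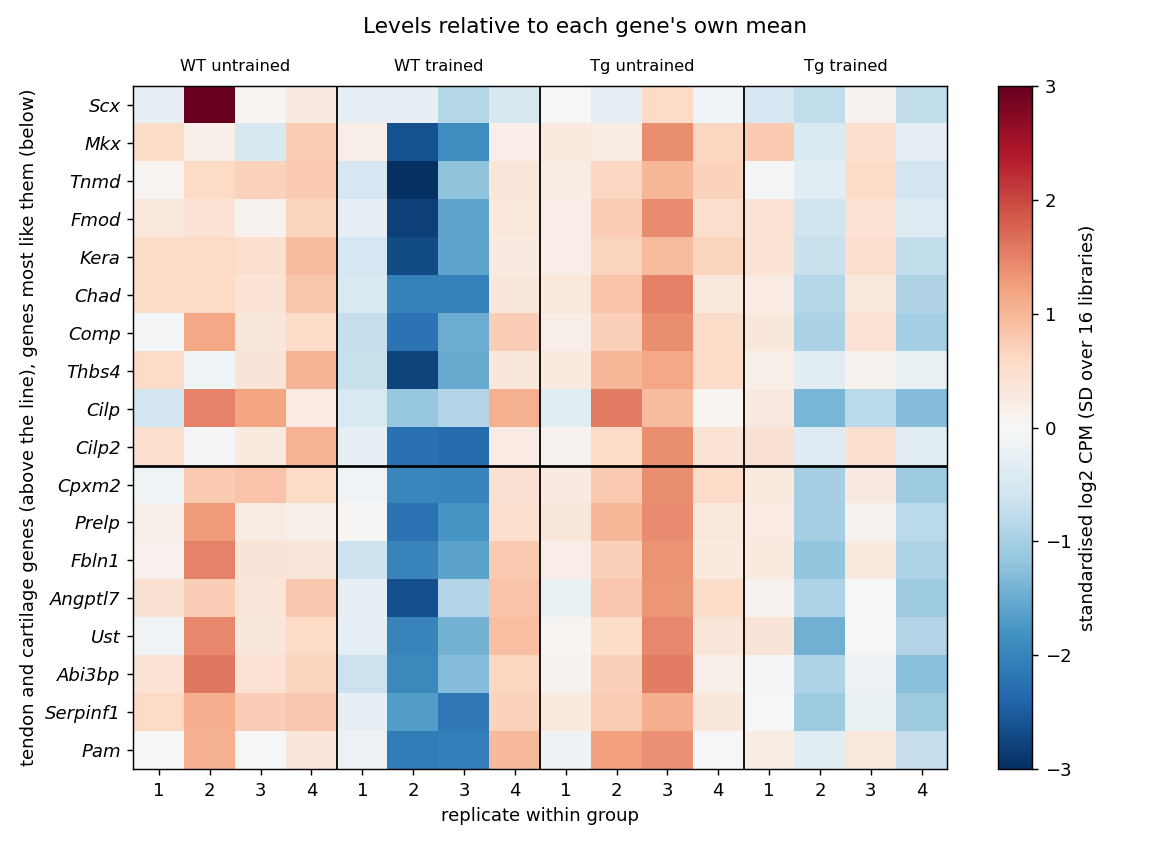
Log2 CPM of the 10 genes (above the line) and of the 8 genes most like them (below), each standardised to its own mean and SD over 16 libraries, with 1 column per library and blue for lower. WT trained replicates 2 and 3 form the low columns and Tg untrained replicate 3 the high one, and Scx and Cilp depart from the rest.

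Other tendon genes were read from lists, averaged over the genotypes. The lists were chosen with earlier results of these data known. They also hold Cpxm2, Angptl7, Abi3bp and Prelp, which are among the genes above that followed the mean profile most closely. The list counts here and in the next paragraph are therefore a description, not independent support. Of all tested genes, 49.5% had a negative log2FC in this contrast and 0.457% were called in either direction. Those lower with an unadjusted p under 0.05 were 7.76%. Of 15 other tendon and sheath matrix genes, 15 had a negative log2FC, 13 with an unadjusted p under 0.05 and 0 called, with a median of -0.66. Angptl7 (-1.16), Dpt (-0.52), Myoc (-0.48) and Tnxb (-0.25), which encode secreted or matrix proteins, were the most abundant. All 3 other thrombospondins were negative with a median of -0.84 and 0 called: Thbs1 had -1.72 (adjusted p = 0.0739), Thbs2 -0.84 and Thbs3 -0.33. Of 12 tested small leucine-rich repeat genes 11 were negative, 7 with an unadjusted p under 0.05 and 0 called, with a median of -0.35. Dcn, or decorin, the most abundant, had -0.66 (adjusted p = 0.0574), Ogn -0.67 and Prelp -0.49, whereas Bgn, or biglycan, had 0.041.

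The bulk collagens had log2FC closer to 0. Of 21 collagen and cross-linking genes all had a negative log2FC, 10 with an unadjusted p under 0.05 and 0 called, but the median was -0.26. The abundant Col3a1 (-0.031), Col6a3 (-0.19), Col1a1 (-0.40) and Col1a2 (-0.44) were closer to 0 than the smallest of the 10 genes, Cilp at -0.51. Of the 21, only Col12a1 (-0.84) and Lox (-0.67) were farther from 0 than Cilp. In the list of tendon regulators and TGF-beta signalling 10 of 12 were negative, 3 with an unadjusted p under 0.05, with a median of -0.11, and Smad3 (-0.043), Tgfbr2 (-0.14) and Tgfbr1 (-0.16) were near 0. The average of Egr1, -0.23, joined 1.08 in WT (adjusted p = 0.441) and -1.54 in Tg (adjusted p = 0.173), in edgeR. Egr1 was called for Tg against WT untrained muscle (log2FC 1.97, adjusted p = 0.038). Cartilage genes had a median of -0.24, with 7 of 11 tested negative and 3 with an unadjusted p under 0.05: Col11a1 had -0.85, Col11a2 -0.80, Prg4 -0.28 and Col9a1 -0.13. On the muscle side of the myotendinous junction the median of 8 genes was 0.058. Of these, 3 were negative, all with an unadjusted p under 0.05, and 1 of the 5 positive ones had such a p. That positive gene was Itga7, with a log2FC of 0.19 (SE 0.085). The log2FC was 0.17 for Xirp2, 0.12 for Xirp1, 0.10 for Tln2, -0.22 for Lama2, -0.51 for Col22a1 and -0.49 for Ankrd1. No tested gene of these lists was called for training in WT, in Tg or averaged.

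Some markers of other cells moved with part of this pattern. The summed CPM of 10 fibroblast and fibro-adipogenic progenitor markers, all 10 tested, was 505, 322, 331 and 556 in WT trained replicates 1 to 4, so it was lowest in the same 2 libraries; it ranged from 533 to 596 in WT untrained, 413 to 565 in Tg untrained and 331 to 404 in Tg trained muscle. Gsn had the highest mean of the fibroblast markers, 311 CPM, and weighed most in their sum. The sum of 8 adipocyte markers was 267 to 452 in WT trained, 350 to 375 in WT untrained, 325 to 389 in Tg untrained and 242 to 281 in Tg trained libraries. Plin4 and Fabp4, with means of 252 and 64.8 CPM, weighed most in it. Averaged over the genotypes their log2FC for training was -0.19 and -0.11, and neither was called. The less abundant Adipoq, Plin1, Cidec, Lep and Retn, 5 of the 8, fell with training averaged over the genotypes (log2FC -2.87 to -1.87, edgeR, highest adjusted p = 0.0451). Bone markers, 4 of 6 tested and none at 0 throughout, summed to 0.316 to 1.64 CPM in WT trained and 1.35 to 7.24 CPM in the other groups. Schwann cell markers, 8 of 8 tested, reached their highest sum, 56.4 CPM, in Tg untrained replicate 3, the library with the highest level of 8 of the 10 genes, and lay between 15.8 and 44.4 in the others. Liver markers, 1 of 4 tested, summed to 44.5 CPM in WT trained replicate 4, 18.5 in WT untrained replicate 2 and 18.9 in Tg untrained replicate 2. Elsewhere they summed to 0.0388 to 0.314 CPM. Macrophage markers, 6 of 6 tested, also had their highest sum in WT trained replicate 4, 51.8 CPM, against 16.1 to 48.0 in the others. In WT trained replicates 1 to 4, 5 smooth muscle and pericyte markers summed to 326, 322, 340 and 337 CPM. There 7 fast-twitch markers summed to 184340, 184150, 188700 and 171390 CPM, and 5 erythroid markers to 133, 123, 129 and 147. All 3 sums were lowest of the 16 libraries in WT untrained replicate 2, at 228, 123460 and 113 CPM.

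Slow-twitch myosin varied between libraries as well. Myh7 exceeded 10 CPM in WT untrained replicate 2 (11.2), WT trained replicate 3 (29.7), Tg untrained replicate 2 (64.3) and Tg untrained replicate 3 (42.1), and lay between 1.16 and 6.62 in the others. WT trained replicate 2, the lowest library for 6 of the 10 genes, had 2.22 CPM. Without those 4 libraries all 10 log2FC for training in WT remained negative and 4 had an unadjusted p under 0.05. For training in Tg the median was then -0.324, against -0.74 with all libraries, and 0 of the 10 had such a p, against 2. Averaged over the genotypes 4 had one, against 9. The median for Tg against WT untrained muscle turned to -0.122. The part of fibroblast, fat, nerve, bone, liver, macrophage, smooth muscle, erythroid or slow or fast fibre content in the levels of the 10 genes was not tested.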

How the data were processed

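RNA-seq of mouse skeletal muscle was analysed in 16 libraries, 4 in each of 4 groups taken from the genotype and treatment labels. Per the labels' protocols, RNA came from an RNeasy column and the libraries from a SMARTer kit for mRNA. The submitters' processing notes name STAR 2.7.8a, RSEM 1.3.2 and mm10. The authors deposited RSEM expected counts per gene, not normalized, of which 12.48% were not whole; they were rounded here. For the annotation release and the strand setting, nothing was found in these sources. Reads that fit several genes are split by RSEM, which leaves close paralogues uncertain.

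Genes kept by filterByExpr (17490, with at least 99.928% of each library's counts) entered 1 edgeR 4.0.16 quasi-likelihood model with TMM factors and 1 coefficient for each group, run in R 4.3.3. The 6 contrasts were tested two-sided. The biological coefficient of variation was 14.14%. The 95% intervals used the model's t quantiles. The model was tested on simulated data. Replicates differed beyond sampling noise (lowest chi-square per degree of freedom 7.08). The labels do not say whether replicate numbers pair libraries, and the main model did not pair them.

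The 10 genes, the lists and the markers were chosen with earlier results of these data known. Named beside the 10 were up to 4 tested genes of each list with the highest mean CPM, any called gene of a list in the contrast described, and the 8 genes most like the 10. Other genes were named after their values were seen. Gene positions and exon lengths came from GENCODE vM21 (GRCm38), promoter sequences from RefSeq (GRCm38.p6). The alternatives replaced TMM with RLE factors, dropped the filter or asked for 1 CPM in 4 libraries, and replaced the test with limma-voom (limma 3.58.1), DESeq2 1.42.0 or robust dispersion. Others were the replicate number as a block, only the 8 libraries of a contrast, leaving out each library, and leaving out the 4 libraries above 10 CPM of Myh7. Leaving out WT trained replicates 2 and 3 together was added after the data were seen. Library totals of 40888325 to 61703724 counts and the spread between replicates, as in the SEs, set the precision, and Mkx had the fewest counts, 5 to 74 a library.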

Additional observations from a re-analysis of the deposited data

Results flagged for a closer look

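Of 40 sets of 4 libraries (10 genes in 4 groups), 1 held a library far from the others: Scx in WT untrained replicate 2, at 9.17 CPM against 1.88 to 2.34 CPM in the other 3. The gap to the nearest library was 0.937 of the group's range, above Dixon's limit of 0.829 for 4 libraries, and chance passes that limit in about 5% of sets. The same library had 18.5 CPM of Bop1, the gene that surrounds Scx on the opposite strand, and the highest TMM factor, 1.285. The other 9 genes were not set apart in it.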

How the results depend on the processing

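None of the 10 genes was called for training in WT, for training in Tg, between genotypes or for the difference of responses under any alternative run. For training averaged over the genotypes, 80 of the 17490 tested genes were called in the main run, 366 with DESeq2 and 389 without WT trained replicate 4. Of the 10 genes, 1 was called with DESeq2 and 0 to 6 with 1 library left out, 6 of them without WT trained replicate 4. Their median log2FC with 1 library left out ranged from -1.86 to -0.911 for training in WT, -0.961 to -0.56 in Tg and -1.33 to -0.838 averaged, from -0.078 to 0.333 for Tg against WT untrained, 0.272 to 1.29 trained, and 0.045 to 0.917 for the difference of responses. The sign for Tg against WT untrained also turned without the 4 libraries above 10 CPM of Myh7 (-0.122), and those for Tg against WT trained (-0.020) and the difference (-0.244) turned without WT trained replicates 2 and 3 together, chosen after seeing the data. The cause was not tested.

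Single genes changed sign only in contrasts between genotypes and in the difference of responses. Without the libraries above 10 CPM of Myh7, Chad (-0.37), Cilp2 (-0.49), Fmod (-0.021), Kera (-0.26), Thbs4 (-0.14) and Tnmd (-0.10) turned for Tg against WT untrained and Scx (-0.065) for trained. With limma-voom Kera turned untrained (-0.012) and Scx trained (-0.017). Without WT trained replicates 2 and 3, Chad (-0.21), Comp (-0.37), Fmod (-0.014), Scx (-0.038) and Tnmd (-0.026) turned for Tg against WT trained, and Chad (-0.53), Cilp2 (-0.15), Comp (-0.61), Fmod (-0.49), Mkx (-0.34), Thbs4 (-0.14) and Tnmd (-0.15) for the difference.

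With 1 library left out the ranges that held a change of sign were, for Tg against WT untrained, Chad -0.095 to 0.49, Cilp -0.188 to 0.124, Cilp2 -0.156 to 0.551, Comp -0.092 to 0.545, Kera -0.137 to 0.142, Scx -1.10 to 0.018 and Tnmd -0.040 to 0.258. For trained they were Cilp -0.416 to 0.032 and Scx -0.132 to 0.069, and for the difference Chad -0.098 to 0.953, Cilp -0.393 to 0.055, Comp -0.224 to 1.08, Fmod -0.095 to 0.881 and Scx -0.013 to 1.10.

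With the replicate number as a block, 0 of the 10 genes were called in each contrast (lowest adjusted p 0.355 for training in WT and 0.135 averaged). Over all tested genes, 16 were called with the block for training averaged over the genotypes, against 80 without it. Same-numbered libraries had correlations of -0.129 to 0.176 over 24 pairs, 5 of them over 0.1. Among the 4 libraries of another group, a library correlated best with its own number in 19 of 48 comparisons. The numbers were not taken to pair the libraries, but pairing was not excluded. The filter of CPM of at least 1 removed Mkx.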
